A study of Mus musculus with 5 samples.

Results

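The 6 genes described here, Clec4a1, Clec4a2, Clec4a3, Clec4d, Clec4e and Clec4n, encode C-type lectin receptors of myeloid cells. They were taken by gene symbol and make up 6 of the 31053 genes in the count matrices. The set was chosen by the measured rise of Clec4d, which an earlier analysis of these data had found higher in disease in monocytes and macrophages, so that rise is described here without a test. C-type lectins of this family sit in the membrane of macrophages, monocytes, neutrophils and dendritic cells and bind sugars and lipids of microbes or material from dead cells. Clec4e (Mincle), Clec4d (MCL) and Clec4n (Dectin-2) are activating receptors that signal through the Fc receptor gamma chain, encoded by Fcer1g, to the kinase Syk and the adaptor Card9. Clec4a2 (DCIR1) carries an inhibitory motif that recruits phosphatases. Clec4a1 (DCIR4) and Clec4a3 (DCIR3) are close relatives of Clec4a2 without that motif.

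Cells came from digested mouse hearts in a model of the heart inflammation caused by immune checkpoint inhibitors. All mice were Pdcd1-/-, so the controls lacked Pdcd1 as well. The control group was Ctla4+/+ Pdcd1-/- (4 mice, libraries 1 and 2) and the disease group was Ctla4+/- Pdcd1-/- (10 mice, libraries 3, 4 and 5). Hearts were pooled and live nucleated cells, positive for the DNA dye DRAQ5 and negative for DAPI, were sorted before 10x Genomics 5-prime single-cell RNA sequencing. The labels of single libraries count up in a row (Pdcd1, Pdcd2, Pdcd3 and DRAQ5 to DRAQ9), whereas the text on the series design gives Pdcd1 and DRAQ5 for all libraries, and the latter was used. The labels give no ages, and they do not say which mice entered which library, so p-values measure the spread between these libraries of pooled hearts.

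The matrices held 47319 cell barcodes, of which 37202 passed the filters and the doublet caller. The libraries had between 24991704 and 55053988 UMIs (unique molecular identifiers, 1 per captured transcript molecule), and the median kept barcode had between 3366 and 4540. Barcodes were assigned to cell types by UMIs of marker genes that do not include the 6 lectin genes, which gave 4343 macrophage, 155 monocyte, 174 neutrophil and 176 dendritic barcodes. Each library held between 460 and 1406 macrophage barcodes, 16 and 70 monocyte barcodes, 18 and 59 neutrophil barcodes, and 8 and 66 dendritic barcodes. In each gate the summed markers of its own list were the highest of the 4 myeloid lists in every library, and all 9 neutrophil markers were detected in the neutrophil barcodes of every library. The doublet caller marked 4 of 5588 barcodes (0.0716%) in control library 2, too few for it to have worked there. Between 86 and 161 barcode sequences were shared by each pair of libraries, 1208 in all. Ctla4 ranged from 87.0 to 649 and Pdcd1 from 75.8 to 1069 CPM (UMIs of the gene for every 1000000 UMIs of those barcodes) in T cell barcodes. The labels do not say which part of either gene was removed, so these levels check neither genotype.

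All 6 genes lie on chromosome 6 (GRCm38/mm10, GENCODE vM21) in a stretch of 368 kb that holds 9 Clec4 genes. Clec4a1 (ENSMUSG00000049037, chr6:122921848-122934619) and Clec4a3 (ENSMUSG00000043832, chr6:122952515-122969875) stand at one end. Clec4a2 (ENSMUSG00000030148, chr6:123106428-123143999) lies in the middle. Clec4n (ENSMUSG00000023349, chr6:123229843-123247021), Clec4d (ENSMUSG00000030144, chr6:123262111-123275265) and Clec4e (ENSMUSG00000030142, chr6:123281789-123289870) follow each other at the other end. Clec4e is on the minus strand and the other 5 are on the plus strand. The remaining genes of the stretch, Clec4a4, Clec4b1 and Clec4b2, are related lectins.

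The 250 bases before the start of Clec4d, Clec4e and Clec4a1 are printed because these genes mark the extremes of the expression pattern: the first pair was highest in neutrophils, and Clec4a1 was nearly absent there. The sequences are RefSeq promoter windows on GRCm38.p6, from chr6:123261857-123262106 on the plus strand (Clec4d), chr6:123289872-123290121 on the minus strand (Clec4e) and chr6:122921598-122921847 on the plus strand (Clec4a1). Capitals mark matches on either strand to GAGGAA, the core of the box bound by Ets factors such as the myeloid factor PU.1, or to TTGCNNAA, a C/EBP-type site.
Clec4d: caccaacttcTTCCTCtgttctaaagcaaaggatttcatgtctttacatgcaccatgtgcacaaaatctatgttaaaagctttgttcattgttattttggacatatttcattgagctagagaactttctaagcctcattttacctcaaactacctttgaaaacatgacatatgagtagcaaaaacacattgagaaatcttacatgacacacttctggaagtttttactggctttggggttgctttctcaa
Clec4e: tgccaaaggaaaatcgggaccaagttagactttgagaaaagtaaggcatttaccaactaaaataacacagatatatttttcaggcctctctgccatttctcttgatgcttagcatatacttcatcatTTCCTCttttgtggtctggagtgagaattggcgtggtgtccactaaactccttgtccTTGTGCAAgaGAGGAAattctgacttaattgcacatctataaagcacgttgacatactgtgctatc
Clec4a1: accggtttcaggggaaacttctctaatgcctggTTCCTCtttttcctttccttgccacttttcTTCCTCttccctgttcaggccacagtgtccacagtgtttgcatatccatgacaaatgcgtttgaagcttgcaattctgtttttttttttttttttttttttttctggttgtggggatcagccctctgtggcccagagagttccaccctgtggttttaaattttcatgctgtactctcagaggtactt

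The Ets core stood 240 bases before the start of Clec4d, 123 and 56 bases before that of Clec4e, and 217 and 187 bases before that of Clec4a1. The C/EBP-type letters stood 66 bases before the start of Clec4e and in no other printed window, and the marked matches do not overlap. The RefSeq table held windows for 5 of the 6 members (6 windows, with 2 starts for Clec4a3). The window of Clec4a2 and that of the first Clec4a3 start held none of these letters, while the second Clec4a3 window held the Ets core 50 bases before the start. Of all 32851 windows in the table, 23.3% held the Ets core and 9.56% the C/EBP-type letters on either strand, so the Ets core letters are common.

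Each gene had its own distribution over the myeloid cells, and 2 patterns stood out. Clec4a1, Clec4a2, Clec4a3 and Clec4n were macrophage genes by mass: macrophage barcodes held 84.8, 85.1, 83.0 and 81.6% of their UMIs. Clec4d and Clec4e were spread over more cell types. Of 3575 Clec4d UMIs, 38.8% were in macrophage barcodes and 36.9% in the far fewer neutrophil barcodes. The order differed between libraries: neutrophil barcodes held 50.1 and 59% and macrophage barcodes 30.1 and 9.27% in the controls, against 29.3, 26.8 and 37.6% and 48.4, 45.2 and 50% in disease. Of 1853 Clec4e UMIs, 47.6% were in macrophage, 16.6% in monocyte and 16% in neutrophil barcodes, with disease library 4 alone giving 987 UMIs. In control library 2 the order was turned, with 40% of Clec4e UMIs in neutrophil, 16.8% in monocyte and 15.7% in macrophage barcodes. Such shares also depend on how many barcodes each gate held in a library. Control library 2 had 42 neutrophil and 460 macrophage barcodes, against 59 and 1406 in disease library 4. Between 10.1 and 17.4% of each gene's UMIs fell in barcodes that met no gate or those of several cell types.

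**Figure D1:**
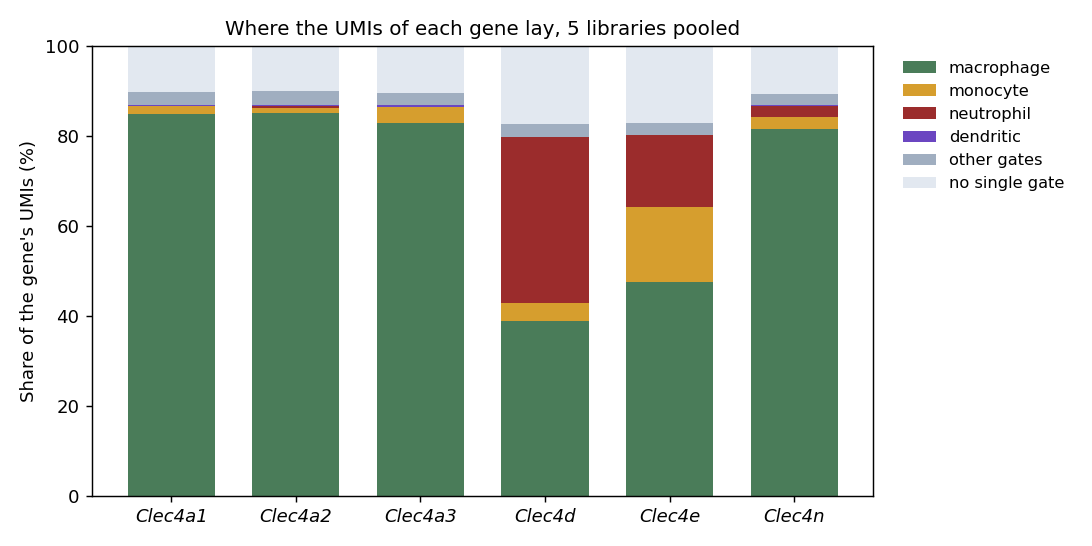
Stacked bars show the share (%) of each gene's UMIs in each gate, 5 libraries pooled. Macrophage barcodes held over 80% of the UMIs of Clec4a1, Clec4a2, Clec4a3 and Clec4n, and 38.8% of those of Clec4d.

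Outside the myeloid gates the 6 genes were near 0. In T cell, B cell, endothelial and fibroblast barcodes the highest level in any library was 9.38 CPM, for Clec4a3 in B cells. In NK cell and mural barcodes no member had more than 2 UMIs in a library. The smallest deposited barcode had 500 UMIs, which leaves no empty droplets to measure free RNA, so these low levels serve as the background.

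Clec4d was the most neutrophil-biased member. Its level in neutrophil barcodes was 4720 and 3687 CPM in control libraries 1 and 2 and 3860, 3498 and 4232 CPM in disease libraries 3, 4 and 5. In monocyte barcodes it was 14.7 and 125 CPM in the controls and 218, 150 and 138 CPM in disease. In macrophage barcodes it was 19.3 and 19.9 CPM in the controls and 80.6, 61.3 and 52.5 CPM in disease. Every neutrophil value lay above every monocyte and macrophage value. The fitted log2 difference of neutrophil over dendritic barcodes is not given, since dendritic barcodes held 3 Clec4d UMIs in all. In edgeR's quasi-likelihood fit with the library as a block, Clec4d was lower in macrophage than in neutrophil barcodes by a log2 fold change of -6.69 ± 0.37 (SE, 5 libraries, adjusted p = 2.53e-12), and lower in monocyte than in neutrophil barcodes by -5.19 ± 0.37 (adjusted p = 1.77e-10). Macrophage barcodes were in turn below monocyte barcodes (-1.50 ± 0.37, adjusted p = 0.00222), and in control library 1 the levels of these cells were 19.3 and 14.7 CPM, in the opposite order. Between gates, many genes differed: 39.4% of the 3885 genes tested passed the threshold for macrophage against monocyte, 64.2% for macrophage against neutrophil, 55.6% for macrophage against dendritic, 55.2% for monocyte against neutrophil, 33.2% for monocyte against dendritic and 65.4% for neutrophil against dendritic barcodes.

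Nearly every neutrophil barcode carried Clec4d. When each barcode was thinned to 1000 UMIs, between 92.5 and 100% of neutrophil barcodes held at least 1 Clec4d UMI, against between 1.57 and 4.86% of macrophage barcodes. In T cell barcodes, which should lack the gene, the thinned share was 0 in 4 libraries and 0.0460% in disease library 4. Without thinning, the shares were between 96.6 and 100% of neutrophil and between 5.65 and 17.8% of macrophage barcodes, at median depths of 1638 to 1990 and 5154 to 6989 UMIs. A single neutrophil barcode held up to 26 Clec4d UMIs, with a mean of 6.76 to 9.76 per barcode in each library.

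Clec4e fell from neutrophil to monocyte to macrophage barcodes in every library. Neutrophil barcodes held 734 and 913 CPM in the controls and 1009, 938 and 713 CPM in disease. Monocyte barcodes held 152 and 242 CPM in the controls and 266, 349 and 224 CPM in disease, and macrophage barcodes held 11 and 12.3 CPM in the controls and 24.9, 47.4 and 33.9 CPM in disease. The 3 gates did not overlap in any library. In the same fit Clec4e was lower in macrophage than in monocyte barcodes (log2 fold change -3.33 ± 0.29, adjusted p = 9.1e-09) and lower in monocyte than in neutrophil barcodes (-1.89 ± 0.29, adjusted p = 1.55e-05). After thinning, Clec4e was found in 37.0 to 58.3% of neutrophil and 13 to 37.5% of monocyte barcodes, and in 0.673 to 2.78% of macrophage barcodes. Dendritic barcodes held 3 Clec4e UMIs, all in disease library 5.

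Clec4n, the third gene of that end of the stretch, was more even. Its level was 88.5, 104, 130, 107 and 115 CPM in macrophage barcodes of libraries 1 to 5, 19.6, 109, 145, 93.9 and 112 CPM in monocyte barcodes, and 83.4, 333, 378, 316 and 184 CPM in neutrophil barcodes. Neutrophils were highest in 4 of 5 libraries. Control library 1 was low in both monocytes (4 UMIs) and neutrophils (5 UMIs). Clec4n was lower in macrophage than in neutrophil barcodes (log2 fold change -1.26 ± 0.27, adjusted p = 0.000413), whereas the difference of macrophage over monocyte barcodes missed the threshold (0.28 ± 0.26, adjusted p = 0.417).

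Clec4a1 and Clec4a3, the neighbours at the other end, were shared by macrophages and monocytes and were rare in neutrophils. Clec4a1 stood at 320 and 193 CPM in control and 247, 338 and 245 CPM in disease macrophage barcodes, and at 127 and 211 CPM in control and 103, 184 and 293 CPM in disease monocyte barcodes. Only 1 Clec4a1 UMI was found in the 174 neutrophil barcodes. The macrophage and monocyte levels of Clec4a1 overlapped, with a log2 difference of 0.60 ± 0.25 (adjusted p = 0.066). That difference passed the threshold when control library 2 (0.80, adjusted p = 0.0338) or disease library 5 (0.88, adjusted p = 0.0215) was left out.

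Clec4a3 stood at 288, 208, 259, 332 and 225 CPM in macrophage and at 319, 343, 297, 304 and 413 CPM in monocyte barcodes of libraries 1 to 5. The difference between these gates missed the threshold (macrophage over monocyte -0.35 ± 0.28, adjusted p = 0.344). In neutrophil barcodes Clec4a3 had 3 and 4 UMIs in the controls and 0, 1 and 0 in disease, and its level there was below that of macrophages (log2 fold change 3.43 ± 0.56 for macrophage over neutrophil, adjusted p = 2.1e-05).

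Clec4a2, the inhibitory receptor, was the one DCIR-type member with a clear neutrophil level. Macrophage barcodes held 323 and 248 CPM in the controls and 266, 283 and 254 CPM in disease. Neutrophil barcodes held 133 and 111 CPM in the controls and 151, 149 and 92.0 CPM in disease, from 4 to 17 UMIs a library. Monocyte barcodes held 73.6 and 46.8 CPM in the controls and 115, 140 and 60.3 CPM in disease. Macrophages exceeded both other gates, by a log2 fold change of 1.55 ± 0.21 over monocytes (adjusted p = 4.7e-06) and 1.06 ± 0.26 over neutrophils (adjusted p = 0.00122). The difference of monocytes over neutrophils missed the threshold (-0.50 ± 0.30, adjusted p = 0.225).

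Dendritic barcodes had the lowest mean over libraries of the 4 myeloid gates for every member but Clec4a1, with 14.4 CPM for Clec4a2, 13.2 for Clec4a3, 9.50 for Clec4n, 1.42 for Clec4d and 0.975 for Clec4e. For Clec4a3 the neighbours in that order, neutrophil and dendritic barcodes, differed by less than 1 standard error (log2 difference 0.68 ± 0.88, edgeR adjusted p = 0.508). Macrophage over dendritic differences were 4.55 ± 0.38 for Clec4a1, 4.04 ± 0.28 for Clec4a2, 4.11 ± 0.42 for Clec4a3 and 3.98 ± 0.39 for Clec4n on the log2 scale, and each passed the threshold (largest adjusted p of these 4 = 3.54e-08). Within the dendritic gate the few UMIs were unevenly placed. The 89 barcodes with Xcr1 or Clec9a, markers of conventional type 1 dendritic cells, held 1 Clec4a2 UMI (0.721 CPM, exact Poisson 95% interval 0.0182 to 4.01). The 18 barcodes with Cd209a, a marker of monocyte-related and type 2 dendritic cells, held 17 (97.1 CPM, 56.6 to 155). These intervals cover counting error only, and single libraries had as few as 1 barcode with Cd209a.

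**Figure D2:**
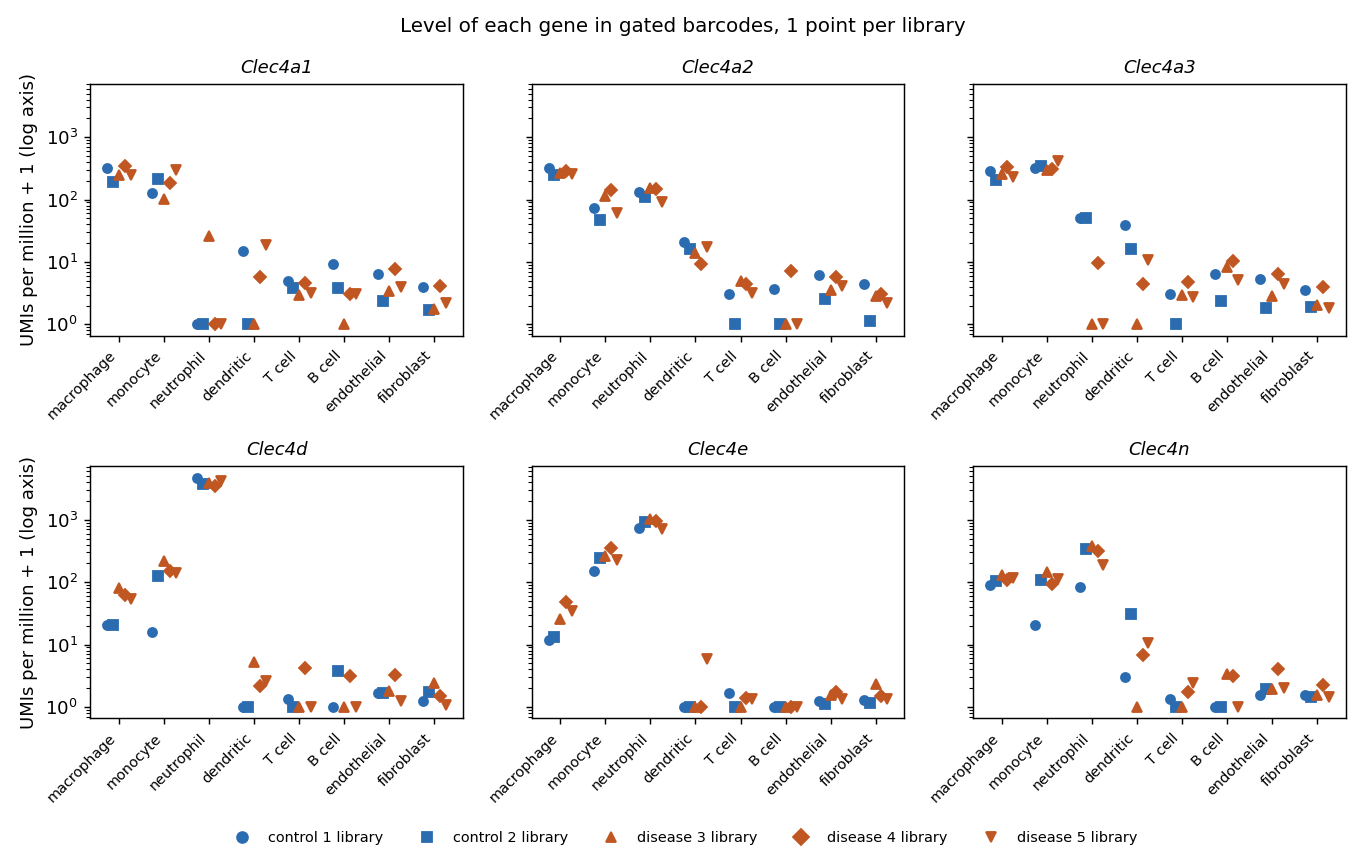
Points give the level (CPM + 1, log axis) of each gene in each gate, with 1 point per library and colour for the group. Clec4d and Clec4e are highest in neutrophil barcodes in every library, whereas Clec4a1 is at 0 in the neutrophil barcodes of 4 of 5 libraries.

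The monocyte barcodes could be split by markers of classical monocytes, which enter inflamed tissue, and nonclassical monocytes, which patrol the vessel wall. Pooled over libraries, Clec4a3 stood at 476 CPM (exact Poisson 95% interval 399 to 565) in 68 nonclassical and at 261 CPM (213 to 316) in 43 classical barcodes. Clec4a2 went the other way, at 36.1 CPM (17.3 to 66.4) in nonclassical and 142 CPM (107 to 184) in classical barcodes. For Clec4d the pooled values were 152 CPM (109 to 205) in nonclassical and 160 CPM (123 to 204) in classical barcodes. Classical barcodes came nearly all from disease, with 2 and 1 in the control and 10, 23 and 7 in the disease libraries, against 11 and 15 and 9, 25 and 8 nonclassical ones. Within the disease libraries Clec4d stood at 232, 153 and 143 CPM in classical and 319, 139 and 160 CPM in nonclassical barcodes. A library held as few as 1 classical and 8 nonclassical barcodes, so these pooled values describe the 5 libraries together and carry no test.

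Macrophage barcodes could be split by the resident macrophage markers Lyve1, Timd4, Folr2 and Cd163. Clec4e was the only member with the same direction in all 5 libraries. It stood at 4.3, 3.80, 18.1, 19.1 and 14.4 CPM in barcodes with at least 2 resident markers of libraries 1 to 5, and at 20.3, 51.7, 25.7, 78.4 and 74.8 CPM in barcodes with none. Clec4e was lower with resident markers in 5 of 5 libraries (mean log2 difference of CPM + 1 -2.04 ± 1.06 SD, n = 5, exact two-sided sign-flip permutation p = 0.0625, adjusted over the 6 members 0.375). The value 0.0625 is the smallest that 5 libraries can give. The difference had the same direction in each library among barcodes without any neutrophil marker UMI, at 5.60, 2.35, 11.2, 8.08 and 9.21 CPM with and 21.7, 62.3, 13.8, 51.3 and 67.0 CPM without resident markers. Few barcodes carried these UMIs: in control library 2, 1 barcode held 16 of the 29 Clec4e UMIs of all macrophage barcodes. Over all barcodes of the split, monocyte markers summed to 1778, 2088, 2443, 1567 and 2208 CPM with at least 2 resident markers. Without resident markers they summed to 570, 630, 882, 880 and 929 CPM. Their part in the Clec4e difference was not tested.

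Clec4n leaned the other way, with 126 ± 23.4 CPM (SD, n = 5) in resident-marker barcodes and 95.7 ± 47.5 CPM in those without. It was higher with resident markers in 4 of 5 libraries, control library 2 being the exception (exact permutation p = 0.25, adjusted 0.675). Clec4a2 was likewise higher with resident markers in 4 of 5 libraries and Clec4d lower in 4 of 5, while Clec4a1 and Clec4a3 were higher in 3 of 5. These 4 genes had adjusted exact permutation p-values between 0.675 and 0.875.

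**Figure D3:**
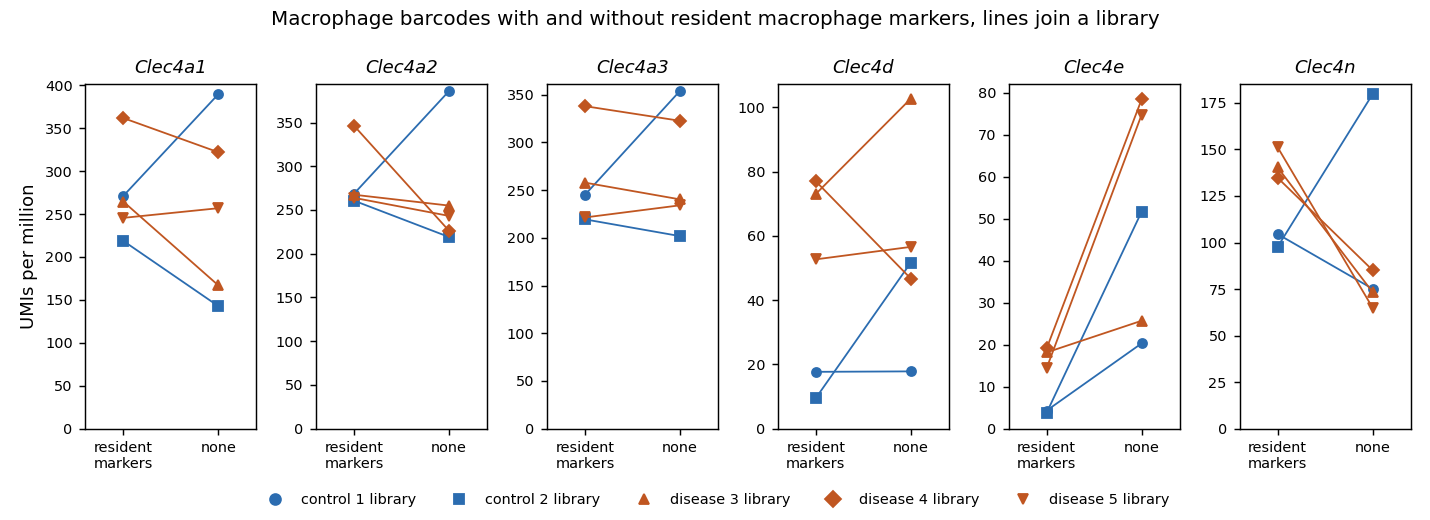
Lines join the level (CPM) of each gene in macrophage barcodes with at least 2 resident markers and with none, 1 line per library and colour for the group. All 5 lines of Clec4e rise towards the barcodes without resident markers, while 4 of the 5 lines of Clec4n fall.

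Next, the disease and control libraries were compared within each gate. In macrophage barcodes 758 of 11045 genes tested (6.86%) passed an adjusted p under 0.05 in edgeR's quasi-likelihood test, 34 of them higher in disease (0.308%). The number called higher ranged from 10 to 110 when a library was left out and was 65 with DESeq2 and 222 with every gene tested. Of the 5 members other than Clec4d, Clec4e was called higher and none lower. For Clec4d, the gene behind the choice of the set, the mean was 19.6 ± 0.403 CPM (SD, n = 2) in control and 64.8 ± 14.4 CPM (n = 3) in disease macrophages, a fitted log2 difference of 1.83 ± 0.22 (SE). Clec4e went from 11.6 ± 0.882 CPM (n = 2) to 35.4 ± 11.3 CPM (n = 3), a fitted log2 difference of 1.77 ± 0.37 (SE, edgeR adjusted p = 0.0364). For both genes, each disease library lay above each control library, which was so for 12.7% of all genes tested.

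Neutrophil transcripts moved with this difference. The 9 neutrophil markers summed to 63.4 and 46.1 CPM in the macrophage barcodes of the controls and to 1846, 796 and 754 CPM in those of disease libraries 3, 4 and 5, with Cxcr2 at 0 in control library 1 and Hdc at 0 in control library 2. The excess sat in few barcodes. At least 4 of the 9 markers were detected in 17, 32 and 13 macrophage barcodes of the disease libraries (3.19, 2.28 and 1.85%), and in 0 of 1243 and 0 of 460 in the controls. By the gate and the doublet filter, all 62 carried UMIs of the complement C1q genes and none was marked as a doublet. Their medians were 7561, 10294 and 9023 UMIs against 5473, 6989 and 5932 for all macrophage barcodes of their library. Macrophage barcodes with 2 to 3 neutrophil markers had medians of 7819, 10456 and 8390 UMIs in the same libraries. The 62 barcodes held 552 Clec4d UMIs, 47.1% of all Clec4d UMIs in disease macrophage barcodes, at 1196, 771 and 872 CPM. They held 152 Clec4e UMIs (20.1%), at 389, 177 and 288 CPM. Disease macrophage barcodes with 1 neutrophil marker held 272 Clec4e UMIs (36.0%), 244 of them in library 4. At 1 marker, Clec4e levels were 4.50, 69.1 and 24.2 CPM in disease against 12.7 and 10.4 CPM in the controls. Over all genes, 34 were called higher in disease macrophages. That number fell to 6 without the 62 barcodes and to 3 in barcodes with no neutrophil marker UMI. How neutrophil transcripts came to share barcodes with macrophage transcripts was not tested.

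With the 62 barcodes left out, an alternative chosen after seeing the data, the log2 difference was 0.88 ± 0.21 for Clec4d and 1.38 ± 0.64 for Clec4e (edgeR adjusted p = 0.318). In the 3203 macrophage barcodes with no neutrophil marker UMI at all, Clec4d stood at 23.4 and 21.6 CPM in the controls against 25.2, 30.5 and 33.5 CPM in disease. Clec4e stood at 11.1 and 13.2 CPM in the controls against 10.1, 27.1 and 27.5 CPM in disease. The log2 difference was then 0.52 ± 0.23 for Clec4d and 1.01 ± 0.46 for Clec4e (adjusted p = 0.296), so the Clec4e call was lost and the groups of Clec4e overlapped through disease library 3. The Clec4e call was also lost when control library 1 (adjusted p = 0.215), control library 2 (0.212) or disease library 5 (0.131) was left out, with log2 fold changes of 1.75, 1.78 and 1.81, and at a mitochondrial limit of 25% (0.0526).

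The ratio of Clec4d to the neutrophil markers differed between gates. In neutrophil barcodes Clec4d UMIs amounted to between 1.96 and 3.48% of the neutrophil marker UMIs in each library. In macrophage barcodes they amounted to 30.4 and 43.1% in the controls and to 4.37, 7.71 and 6.97% in disease, above the neutrophil range in every library. In the 62 barcodes with 4 or more neutrophil markers the share was 2.85, 3.61 and 2.99% in disease libraries 3, 4 and 5, inside or just above the neutrophil range. For Clec4e the neutrophil range was 0.527 to 0.752%, and macrophage barcodes stood at 17.4 and 26.6% in the controls and 1.35, 5.95 and 4.49% in disease, with 0.925, 0.828 and 0.987% in the 62 barcodes.

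**Figure D4:**
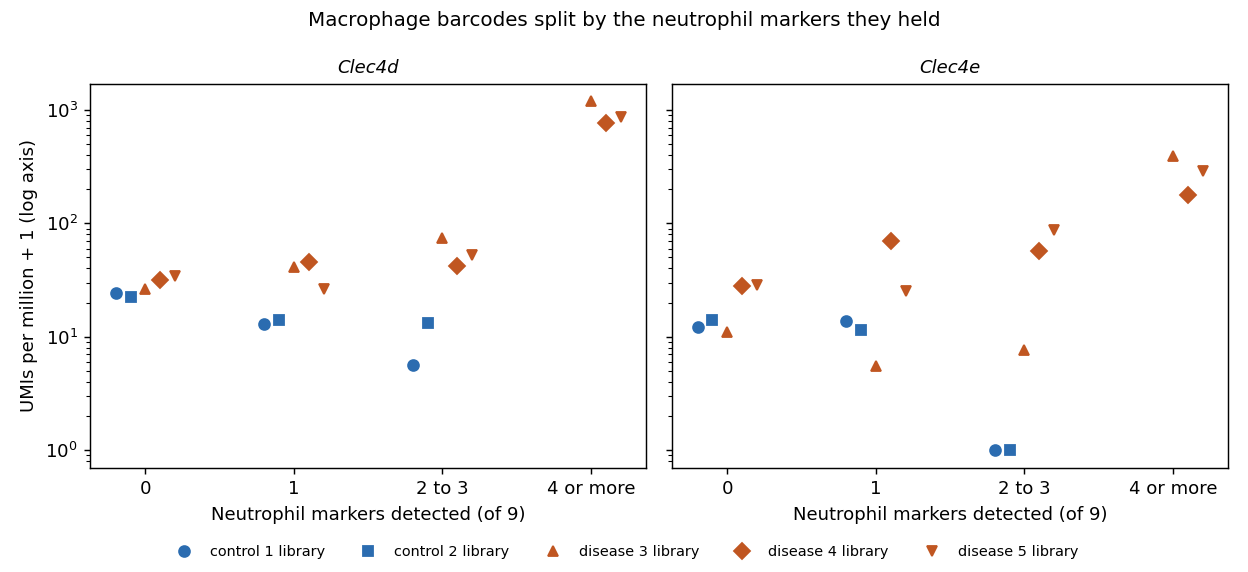
Points give the level of Clec4d and Clec4e (CPM + 1, log axis) in macrophage barcodes split by the number of the 9 neutrophil markers detected, 1 point per library. The 62 barcodes with 4 or more markers came from the 3 disease libraries alone and held the highest levels of both genes, whereas among barcodes with 0 markers the Clec4d levels lay between 21.6 and 33.5 CPM.

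The other 4 members changed little in macrophages. Clec4n stood at 88.5 and 104 CPM in the controls against 130, 107 and 115 CPM in disease, again without overlap between the groups. Its log2 fold change of 0.40 ± 0.17 missed the threshold (edgeR adjusted p = 0.282). The log2 fold changes of Clec4a1, Clec4a2 and Clec4a3 were 0.22 ± 0.33, 0.02 ± 0.23 and 0.25 ± 0.30 (adjusted p between 0.665 and 0.974), and their groups overlapped. Without Clec4d, the median over the other 5 members was 0.25, beside 0.01 over all genes tested.

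In monocyte barcodes none of the 5 members other than Clec4d passed the threshold, against 4.85% of 2352 genes tested, and 3 of the 5 libraries had 23 barcodes each. Clec4d, given without a test, had the largest difference of the members, a log2 value of 1.36 ± 0.66, and its groups did not overlap, as was true with disease above for 19% of genes. The low end was control library 1, with 3 Clec4d UMIs, where monocyte markers were lowest (3094 CPM against 4333 to 7727 in the other 4 libraries) and dendritic markers highest (1196 against 248 to 640). Their part in the difference was not tested. Without control library 1 the Clec4d difference was 0.48 and without control library 2 it was 3.36. Clec4e (0.49 ± 0.34, edgeR adjusted p = 0.527), Clec4n (0.91 ± 0.60, 0.516) and Clec4a2 (0.76 ± 0.48, 0.482) were positive, and Clec4a1 and Clec4a3 lay within 0.13 of no change. Without Clec4d the median of the other 5 members was 0.49, beside 0.01 over all genes.

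In neutrophil barcodes, where Clec4d and Clec4e were highest, no difference between disease and control passed the threshold for a member. Clec4d, Clec4e and Clec4n passed the filter on low counts, and none of them was called, against 1.2% of 913 genes. The log2 fold changes were -0.15 ± 0.21 for Clec4d, 0.07 ± 0.29 for Clec4e (edgeR adjusted p = 0.956) and 0.39 ± 0.54 for Clec4n (0.818). The mean Clec4d level was 4203 ± 730 CPM in the controls (SD, n = 2) and 3863 ± 367 CPM in disease (n = 3). Clec4a3, which was not tested there, had 49.7 ± 0.501 CPM in the controls and 2.92 ± 5.06 CPM in disease from 8 UMIs in all.

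Whether the disease difference itself varied between gates was estimated with a gate by group term. For Clec4d the difference was larger in macrophage than in neutrophil barcodes by 2.05 ± 0.39 on the log2 scale, a value that contains the rise behind the choice of the set and is therefore given without a test. For Clec4e the same term was 1.70 ± 0.44 (edgeR adjusted p = 0.104, against 0.541% of 3885 genes past the threshold), and it passed the threshold without disease library 3 (1.76, adjusted p = 0.0186) and with every gene tested (1.71, 0.0405). Between macrophage and monocyte barcodes 0.0515% of genes passed, and the term of Clec4e was 1.08 ± 0.45 (edgeR adjusted p = 0.769). Between monocyte and neutrophil barcodes no gene passed in edgeR (0%), with 239 genes at an unadjusted p under 0.05.

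In dendritic barcodes control library 2 had 8 barcodes and was left out, so the single control library was assumed to vary like the disease libraries. Clec4a2 and Clec4a3 were tested and neither was called, against 0.776% of 5670 genes. Clec4a3 had 37.7 CPM in control library 1 and 0, 3.52 and 9.75 CPM in libraries 3 to 5 (log2 fold change -2.73 ± 0.92, edgeR adjusted p = 0.296, and 0.0223 with every gene tested). Clec4a2 had 19.9 CPM there and 12.9, 8.20 and 16.2 CPM in disease (-0.62 ± 0.80, adjusted p = 0.826).

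**Figure D5:**
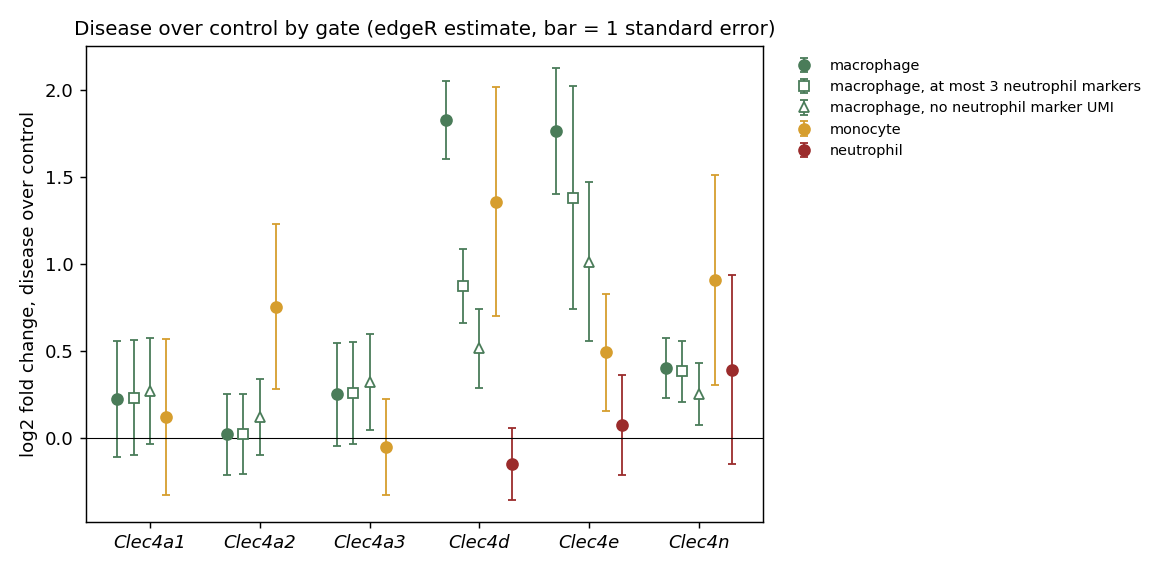
Points give edgeR's log2 fold change of disease over control for each gene in macrophage, monocyte and neutrophil barcodes, and bars 1 standard error; open symbols are macrophage barcodes with at most 3 neutrophil markers and with none. Clec4d falls from 1.83 in all macrophage barcodes to 0.52 in those with no neutrophil marker UMI, and Clec4e from 1.77 to 1.01.

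Genes of the signalling route were taken from lists rather than by their change. Of 13 genes of the activating route, all were tested in macrophages and none was called in either direction. Fcer1g, the shared signalling chain, stood at 3331 and 2049 CPM in the controls against 2702, 4251 and 3049 CPM in disease (log2 fold change 0.43 ± 0.36, edgeR adjusted p = 0.537). Syk and Card9 lay near 0 (-0.07 ± 0.19 and -0.16 ± 0.21, adjusted p = 0.871 and 0.684). The list's median was -0.16, beside 0.01 over all genes. Of 3 genes of the inhibitory route, Ptpn11, a phosphatase that binds inhibitory receptors, fell from 45.5 and 45.2 CPM to 25.5, 19.2 and 22.9 CPM (-0.91 ± 0.17, adjusted p = 0.0268). That call was lost without control library 1 (-0.83, adjusted p = 0.175), control library 2 (-0.97, 0.124) or disease library 5 (-0.92, 0.152), where the size of the fall was similar, and with the GC trend removed (-0.48, 0.27). In the same list Ptpn6 (0.31 ± 0.39, 0.687) and Inpp5d (0.35 ± 0.20, 0.382) were not called.

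Of 12 inflammatory outputs of these receptors, 11 were tested in macrophages, 10 had a positive estimate and none was called. The median was 0.73, beside 0.01 over all genes, of which 51.1% were positive. Neutrophil markers were also higher in these disease macrophages, and Il1b was more abundant in neutrophil barcodes, at 1964 to 3473 CPM. In macrophage barcodes with no neutrophil marker UMI the list's median was 0.63, with 10 of 11 positive, and without disease library 4 it was 0.40, with 9 of 11 positive. Il1b, the cytokine interleukin 1 beta, stood at 346 and 210 CPM in the controls against 313, 609 and 564 CPM in disease (0.96 ± 0.42, edgeR adjusted p = 0.291). Ptgs2, which encodes the prostaglandin enzyme COX-2, had 1.85 ± 0.83 (adjusted p = 0.301), and Nfkbia, an inhibitor of NF-kB, had -1.64 ± 0.45 (adjusted p = 0.0932). Nfkbia levels were lower in disease in neutrophil barcodes too, at 1101 and 1665 CPM in the controls against 908, 228 and 437 CPM. In dendritic barcodes they were 741 and 1032 CPM in the controls against 525, 168 and 236 CPM in disease. In monocyte barcodes Nfkbia was called lower (-2.16 ± 0.51, edgeR adjusted p = 0.0494). Among the fits that left out 1 library the call was kept without disease library 3 (-2.92) and lost in the other 4 (-1.66 to -2.48). It was also lost with RLE size factors (adjusted p = 0.0539), with the GC trend removed (-1.65, 0.0924), and in barcodes with at most 1 (-2.04, 0.0578) or no neutrophil marker (-1.72, 0.386).

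Sap130, another listed gene, stood at 12.8 and 10.6 CPM in control and 15.6, 14.5 and 14.6 CPM in disease macrophages (0.43 ± 0.22, edgeR adjusted p = 0.341). Cebpb, a transcription factor known to act on Clec4e, was set apart by 1 library: its macrophage level was 240 CPM in control library 2 and between 18.0 and 50.4 CPM in the other 4 (-1.74 ± 0.85, edgeR adjusted p = 0.333). Control library 2 was also highest in monocyte (647 against 39.2 to 112 CPM), neutrophil (1541 against 132 to 414 CPM) and dendritic barcodes (44.9 against 1.17 to 8.12 CPM).

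Among 14 other C-type lectins, 9 were tested in macrophages, 7 had positive estimates and none was called. Within the same stretch of chromosome 6, Clec4b1 was also found in macrophages, at 145 and 115 CPM in the controls and 124, 166 and 115 CPM in disease (0.17 ± 0.28, edgeR adjusted p = 0.757), and was at 0 in neutrophil barcodes of every library. It was found in monocyte barcodes as well, at 88.3 and 140 CPM in the controls against 60.5, 35.9 and 17.2 CPM in disease, and in dendritic barcodes at 16.4 to 254 CPM, with control library 2 above its macrophage level in both. Clec4a4 lay between 0.429 and 1.59 CPM in macrophages, and Clec4b2 was at 0 there. In monocytes Mgl2, a galactose-type lectin, was called lower in disease, at 353 and 195 CPM in the controls and 12.1, 63.9 and 0 CPM in disease (-3.04 ± 0.71, adjusted p = 0.0487). Dendritic markers in the same barcodes stood at 1196 and 640 CPM in the controls against 248, 545 and 525 CPM in disease, and their part in the Mgl2 difference was not tested. The Mgl2 call was kept without disease library 4 (-5.20, adjusted p = 0.00486) and lost without each other library (-2.42 to -3.43, adjusted p from 0.0602 to 0.27) and with RLE size factors (-3.04, 0.0506). With 1 more marker per gate Mgl2 did not pass the filter on low counts. In barcodes without neutrophil marker UMIs Mgl2 had -5.49 (adjusted p = 0.072), and edgeR called 0 of 1301 genes there, with 160 at an unadjusted p under 0.05.

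Detection of pairs of members was compared within macrophage barcodes. Clec4e was detected in 26.0% of the 557 barcodes with Clec4d and in 3.22% of the 3786 without. Clec4a2 was detected in 77.1% of the 2868 barcodes with Clec4a1 and in 39.8% of the 1475 without. Deeper barcodes detect more of every gene and the shares were not adjusted for depth. The 62 barcodes with 4 or more neutrophil markers are included. The shares are descriptions. The UMIs of Clec4e were concentrated: the top 1% of macrophage barcodes held between 38.5 and 79.3% of them in each library, against between 5.16 and 8.01% for Clec4a1. Such a share is also larger for a gene with fewer UMIs. Macrophage barcodes of a library held 29 to 520 Clec4e UMIs and 457 to 3713 Clec4a1 UMIs.

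Across the 19 values of library and myeloid gate, the pattern of each member was compared with 6689 genes by Pearson's r of log2(CPM + 1), as a description, since values from 1 library share its depth. Clec4d was most like Tyrobp (0.98), a signalling adaptor, and Csf3r (0.98), the granulocyte growth factor receptor that is itself a gate marker. Clec4e was most like Thbs1, Hp and Mgst1 (0.98, 0.97 and 0.97) and Clec4n most like Irf2, Xdh and Lilrb4a (0.96, 0.96 and 0.95). Clec4a1 was most like Abcb1b, Tnfsf13 and Pla2g15 (0.93, 0.91 and 0.91), Clec4a2 most like Fcgr3, Cd14 and Sertad1 (0.96, 0.92 and 0.92), and Clec4a3 most like Mdfic, Msr1 and Arhgap39 (0.90, 0.89 and 0.88). Among the members, the neighbours Clec4d and Clec4e had an r of 0.92 and the neighbours Clec4a1 and Clec4a3 one of 0.76, while Clec4a1 and Clec4d had -0.33. Clec4n had 0.83 with Clec4e, 0.81 with Clec4d, 0.79 with Clec4a2, 0.28 with Clec4a3 and 0.19 with Clec4a1.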

How the data were processed

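The authors deposited raw UMI counts for each gene in each barcode, and per the file headers these came from Cell Ranger 3.1.0. The submitters' processing notes name Cell Ranger 3 and Seurat 3 and the builds mm10 and GRCh38. The cell-calling rule is not given in the sources used here. Barcodes with at least 500 UMIs, 200 genes and at most 10% mitochondrial UMIs were kept, and doublets were removed with Scrublet (scanpy 1.11.5, expected rate 0.8% per 1000 cells).

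Macrophage barcodes had at least 3 C1q UMIs and 4 of 10 markers. The other myeloid gates had fewer C1q UMIs: monocytes at least 3 Lyz2 and Csf1r UMIs and 3 of 11 markers, neutrophils at least 10 S100a8 and S100a9 UMIs and 4 of 9 markers, and dendritic barcodes 2 of 12 markers. Barcodes that met several myeloid gates took the one with the largest share of markers, ties were left out, and those that also met a lymphoid or stromal gate were set aside.

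Counts were summed per library and gate where at least 10 barcodes were present and tested in R 4.3.3 with edgeR 4.0.16 (TMM, filterByExpr, quasi-likelihood F test, Benjamini-Hochberg over all genes tested, threshold 0.05). Gates were compared in 1 fit with the library as a block, since each library gave all gates. Each standard error is the fold change on the log2 scale divided by the root of its F. CPM divides by all UMIs of the gate. UMIs count molecules at the 5-prime end, so levels were not compared between genes. UMIs of Clec4d and Clec4e relative to the neutrophil markers were compared between gates, not as levels of the genes. The fits were tested on simulated data. Shares use barcodes thinned to 1000 UMIs, with shallower ones left out. Intervals are exact Poisson at 95% and cover counting error only. Alternatives were DESeq2 1.42.0, RLE size factors, no count filter, a mitochondrial limit of 25%, no doublet removal, stricter gates, a GC trend offset, barcodes without or with few neutrophil markers, no library block and leaving out each library. The members, lists and tests were chosen with earlier results of these data known. The genes named are the 6 members, the listed genes and, for each member, the 3 most similar genes of at least 10 CPM, of which 1 is not reported here.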

Additional observations from a re-analysis of the deposited data

Results flagged for a closer look

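The disease difference of Clec4d was larger in macrophage than in neutrophil barcodes by 2.05 ± 0.39 on the log2 scale, which drew attention as a difference of the disease effect between cell types. The rise of Clec4d in these data was the reason for choosing the set, so the value is a description and carries no test. The estimate was 1.77 with DESeq2 and 1.64 with 1 more marker per gate, and between 1.53 and 1.88 when a library was left out. The lowest of these came without control library 1, in a fit added after seeing the data that leaves out the dendritic gate, since control library 2 had 8 dendritic barcodes. In macrophage barcodes with no neutrophil marker UMI the disease difference of Clec4d was 0.52, as against -0.15 in neutrophil barcodes, and the difference between these values was not tested.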

How the results depend on the processing

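Of the alternatives to the members' log2 fold changes, DESeq2, RLE size factors, no doublet removal and stricter gates kept the direction and side of the threshold of the 5 members other than Clec4d in macrophages. Alternatives that ended a call of a member are given with the results. No paired analysis was possible because the control and disease libraries share no replicate numbers. Monocyte, neutrophil and dendritic gates had between 8 and 70 barcodes a library, where members had as few as 0 UMIs. With a control library left out, the lone control library is assumed to vary like the disease libraries, and without control library 1 the terms between cell types come from a fit without the dendritic gate, added after seeing the data.

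Counts of genes called moved more. Testing every gene with at least 1 count gave 1351 for disease over control in macrophage, 250 in monocyte, 39 in neutrophil and 257 in dendritic barcodes; 2643, 4489, 3758 and 4059 for macrophage over monocyte, macrophage over neutrophil, macrophage over dendritic and neutrophil over dendritic barcodes; and 35, 44 and 5 for the difference of the disease effect between macrophage and monocyte, macrophage and neutrophil, and monocyte and neutrophil. The main counts were 758, 114, 11, 44, 1532, 2496, 2161, 2542, 2, 21 and 0. Removing the GC trend gave 397 in macrophage, 65 in monocyte and 5 in dendritic barcodes. Of the 397 calls 50 were higher and 347 lower, against 34 and 724. A mitochondrial limit of 25% gave 22 in neutrophil and 114 in dendritic barcodes, 1 more marker per gate gave 71 in monocytes, and barcodes without neutrophil marker UMIs gave 0 in monocytes and 25 in dendritic barcodes. DESeq2 gave 5 for macrophage against monocyte. Without the replicate block, macrophage over monocyte gave 970 and monocyte over dendritic 768 genes, against 1532 and 1291, and no call of a member changed. Leaving out 1 library gave 217 to 1083 genes in macrophage (fewest without disease library 5), 19 to 103 in monocyte, 1 to 30 in neutrophil and 0 to 220 in dendritic barcodes, 798 to 1151 for monocyte over dendritic, 0 to 33 for macrophage against monocyte and 6 to 36 for macrophage against neutrophil. The cause was not tested.

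Signs turned only in differences that were not called. In monocytes, Clec4a3 was 0.047 with every gene tested, 0.25 without neutrophil marker UMIs and 0.054 with at most 1 neutrophil marker. Clec4a1 was -0.038 with the GC trend removed and -0.087 without neutrophil marker UMIs, where Clec4a2 was -0.13. In neutrophils, Clec4e was -0.096 with the GC trend removed. With 1 more marker per gate the macrophage against monocyte term was -0.17 for Clec4a1 and -0.16 for Clec4d, the macrophage against neutrophil term of Clec4a2 was -0.41 (and -0.29 with DESeq2), and the monocyte against neutrophil term of Clec4n was -0.062. Leaving out 1 library gave, in macrophages, -0.14 to 0.72 for Clec4a1, -0.21 to 0.30 for Clec4a2 and -0.024 to 0.58 for Clec4a3. In monocytes it gave -0.22 to 0.46 for Clec4a1 and -0.19 to 0.054 for Clec4a3. In neutrophils it gave -0.31 to 0.00045 for Clec4d, -0.095 to 0.26 for Clec4e and -0.23 to 1.78 for Clec4n. For the macrophage against monocyte term it gave -0.71 to 0.68 for Clec4a1, -0.19 to 0.38 for Clec4a3, -1.77 to 1.22 for Clec4d and -2.12 to 0.072 for Clec4n. For the macrophage against neutrophil term it gave -6.96 to 0.36 for Clec4a1, -0.60 to -0.049 for Clec4a2 and -1.62 to 0.22 for Clec4n, and for the monocyte against neutrophil term -6.82 to 0.48 for Clec4a1, which had 1 UMI in neutrophils.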
